A study of Rattus norvegicus with 6 samples.

Results

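A set of 30 lysosomal genes was followed through the rat aneurysm wall: the membrane proteins, the soluble hydrolases with their helper proteins, 4 subunits of the proton pump, and the transcription factor Tfeb. The genes were taken by name and not by a cut on measured values, but with earlier results of these data known. Cathepsins were left out. All 30 of 30 were among the 24988 genes of the deposited table. The data are RNA sequencing of aneurysmal abdominal aorta from rats of the Sprague-Dawley strain, with 3 libraries of untreated aneurysm and 3 of aneurysm treated with NP, the agent that the series title calls a targeted nanotherapy. Every library came from an aneurysm, so no healthy aorta serves as a baseline here. The sources used here do not give the composition, dose or timing of NP, the age of the rats or how aneurysms were made. Nor do they state that the libraries are from separate animals, so the p-values describe variation between libraries, which may be partly technical. Values per library are given below in the order of replicates 1, 2 and 3.

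The lysosome is the acidic compartment in which cells break down lipids, glycans and proteins taken up from outside or delivered by autophagy. A V-type ATPase pumps protons into it, heavily glycosylated membrane proteins line it, and many hydrolases work inside it. In human cells TFEB binds a short palindromic element with the core CACGTG in the promoters of many lysosomal genes. In an aneurysm wall, macrophages that clear debris and lipid are rich in lysosomes, and every other wall cell has them too.

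Total counts were 27680260 to 30759349 in the untreated libraries and 26100468 to 30939002 in the treated ones. Smooth muscle markers were present throughout, with Myh11, the smooth muscle myosin, at 485 to 1702 CPM (counts relative to the library total, scaled between libraries by the TMM method). Cd68, a lysosomal glycoprotein that marks macrophages, was at 804 to 1912 CPM. Treated replicates 1 and 3 stood apart from the other libraries in the lysosomal genes, on opposite sides, as described below. Treated replicate 1 also held the highest value in 27.3% and the lowest in 28.4% of all 16522 genes tested, more than any other library in each respect.

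No lysosomal gene differed between NP-treated and untreated aneurysms beyond the spread between libraries. By edgeR's quasi-likelihood test with adjustment over all 16522 genes, 0 of 30 passed an adjusted p of 0.05, against 0% of all genes tested. At an unadjusted p under 0.05 there were 0 of 30, against 1.93% of all genes. In 0 of 30 did the 3 treated values lie wholly above or below the 3 untreated values, against 5.67% of all genes (2.47% with treated higher and 3.2% with treated lower). DESeq2 and limma-voom also called 0 of the 30, with 0 at an unadjusted p under 0.05 by each. Of the 30, 15 had a log2 fold change (treated minus untreated) above 0, beside 55.6% of all genes, and 15 below. Their median was -0.01, beside 0.04 over all genes tested. The intervals limit the size of a difference for most members. In 22 of 30 the 95% interval lay inside a 2-fold change in either direction, as it did in 49.8% of all genes. The exceptions were Atp6v0d2, Cd63, Atp6v1h, Gusb, Psap and Lipa, whose intervals reached past 2-fold higher, and Gm2a and Arsb, whose intervals reached past 2-fold lower.

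**Figure D1:**
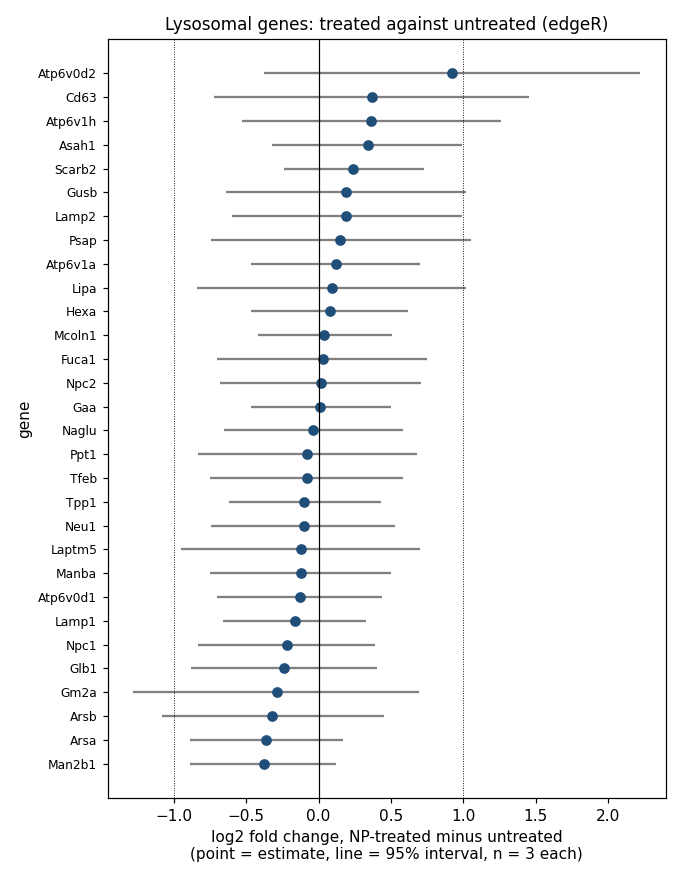
Log2 fold change of each of the 30 lysosomal genes, NP-treated minus untreated (horizontal axis), with its 95% interval from edgeR and dotted lines at a 2-fold change; n = 3 libraries per group. Every interval crosses 0, from Man2b1 at -0.38 to Atp6v0d2 at 0.92.

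What the members did show was a shared difference between libraries that ran across the treatment groups. Treated replicate 3 held the lowest CPM of the 6 libraries in 26 of 30 members (86.7%), while it held the lowest value in 19.6% of all genes tested. Treated replicate 1 held the highest in 19 of 30 (63.3%), against 27.3% of all genes. By CPM both extremes therefore lay in the treated group, and 18 of 30 members had exactly this arrangement, against 9.65% of all genes. The fold between these treated libraries, replicate 1 over replicate 3, had a median of 1.83 over the members, beside 0.974 over all genes. By CPM, replicate 1 was above replicate 3 in 28 of 30 members, all except Scarb2 and Arsa. Counts of the highest and lowest library use CPM, here and below, and those for treated replicate 1 depend on the scaling. Its TMM factor, 0.891, was the smallest of the 6, which raises its CPM. In the deposited FPKM, a level per gene length, Laptm5, Mcoln1, Asah1, Glb1, Neu1, Manba, Naglu, Tpp1, Atp6v1a and Tfeb were highest in another library. Among the untreated libraries, replicate 1 was lowest in 22 of 30 members, against 36.7% of all genes.

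A score was taken as the average log2 CPM of the members, each centred on its own mean over the 6 libraries. It was -0.17, 0.04 and 0.18 in the untreated libraries and 0.37, 0.06 and -0.48 in the treated libraries. The group means were 0.02 ± 0.17 untreated and -0.02 ± 0.43 treated (SD, n = 3 each), a difference of -0.04 that is smaller than either SD. Treated libraries differed more among themselves than untreated libraries in 25 of 30 members, as they did in 67.4% of all genes. The median SD of a member was 0.26 untreated and 0.49 treated on the log2 scale, beside 0.28 and 0.42 over all genes. When the mean of the other 29 members was subtracted in each library, the median SD over the 6 libraries went from 0.36 to 0.25, and it became smaller in 25 of 30 members. Over all genes, subtraction of the member mean took the median SD from 0.39 to 0.48 and made it smaller in 26.9%.

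**Figure D2:**
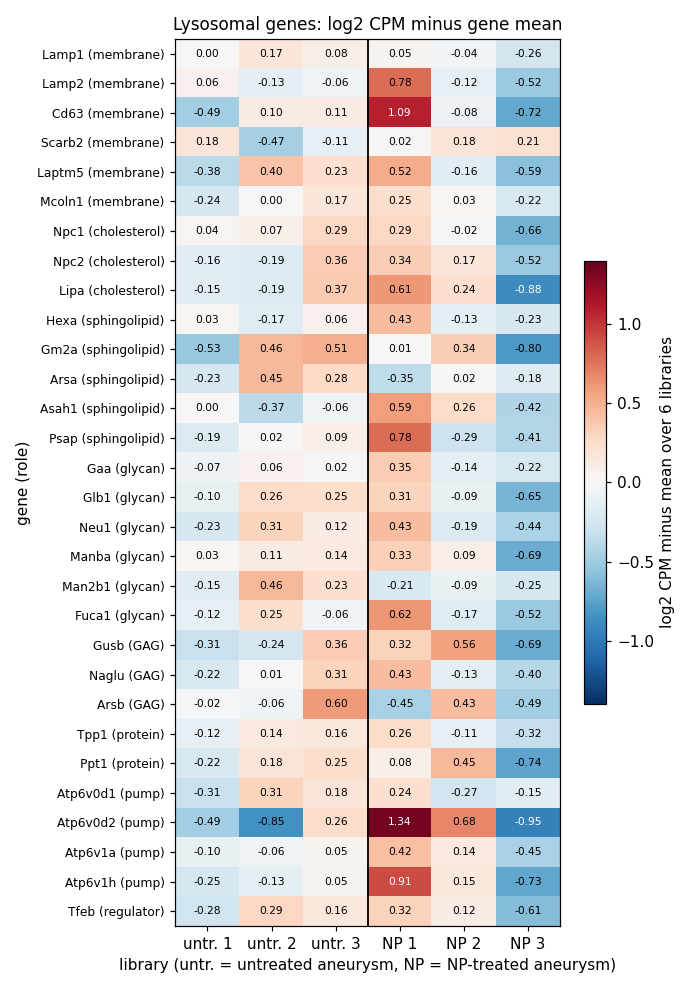
Log2 CPM of each lysosomal gene (rows, with its role) in each library (columns), minus the gene's mean over the 6 libraries; red is higher and blue lower. The column of treated replicate 3 is blue in all rows except Scarb2 (0.21), and the column of treated replicate 1 is mostly red, up to 1.34 for Atp6v0d2.

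The direction of the members against the untreated group rested on these libraries. Without treated replicate 1, 4 of 30 members had a log2 fold change above 0, with a median of -0.28, while 49.7% of all genes lay above 0. Without treated replicate 3, 23 of 30 lay above 0, with a median of 0.15, and 50.3% of all genes did. In neither fit did a member pass the threshold. Asah1, Atp6v0d2 and Atp6v1h then reached an unadjusted p under 0.05 without treated replicate 3, each with an adjusted p of 0.998 by edgeR. These were 3 of 30 members, beside 693 of the 16899 genes tested in that fit.

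Markers of macrophages shared the extremes of the lysosomal score but not the order of the libraries between them. All 15 macrophage markers were tested, none was at 0 in any library, and their summed level ran from 4368 to 5771 CPM untreated and from 3411 to 7307 CPM treated. Their score was -0.12, 0.33 and -0.01 in the untreated libraries and 0.38, -0.16 and -0.42 in the treated libraries. Treated replicate 3 was lowest in 10 of the 15 and treated replicate 1 highest in 8. After the macrophage score was subtracted from the lysosomal score, the values were -0.04, -0.29 and 0.19 untreated and -0.01, 0.22 and -0.06 treated, and treated replicate 3 was lowest in 5 of 30 members in place of 26. Untreated replicate 2 was then lowest in 16. That subtraction was chosen after the values were seen, and Cd68, which is in the marker list, is itself a lysosomal protein.

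Other wall cells gave other patterns over the same libraries. All 10 smooth muscle markers were tested, none was at 0, and their score was 0.01, -0.19 and -0.28 in the untreated libraries and -0.53, 0.50 and 0.51 in the treated libraries. Treated replicate 1 was lowest in 6 of the 10 and highest in 1, the intermediate filament gene Des, at 459 CPM. Of the endothelial markers 9 were tested, none was at 0, and treated replicate 1 was lowest in all 9 while treated replicate 3 was highest in 6. The endothelial score was 0.26, -0.22 and 0.19 in the untreated libraries and -1.26, 0.31 and 0.73 in the treated libraries, and the summed level was 1075 to 1282 CPM untreated and 625 to 1860 CPM treated. The adipocyte score was 0.96, 0.88 and 0.88 in the untreated libraries and -2.12, -0.11 and -0.50 in the treated libraries, with all 10 markers tested and none at 0. The treated values lay wholly below the untreated values in 7 of the 10 adipocyte markers, against 3.2% of all genes, 0 were called by edgeR with 6 at an unadjusted p under 0.05, and Fabp4, a lipid carrier, was instead highest in treated replicate 1 at 2229 CPM. The summed adipocyte level was 1955 to 2895 CPM untreated and 1193 to 2476 CPM treated. That sum leans on Fabp4, which made up 2229 of the 2476 CPM in treated replicate 1. The scores for fibroblasts, neutrophils, mast cells, T cells and B cells were also below 0 in treated replicate 1, from -2.06 for mast cells to -0.57 for fibroblasts, and lay between -0.97 and 0.04 in treated replicate 3. The mast cell markers Mcpt1, Fcer1a and Ms4a2 and the B cell marker Pax5 were at 0 in some libraries. Kit, also in the mast cell list, was instead highest in treated replicate 1, at 68.2 CPM. The mast cell score difference between groups went from -1.7 to -0.75 on log2(FPKM + 1).

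The share of counts in mitochondrial genes was 12.3%, 12.8% and 9.17% in the untreated libraries and 10.8%, 8.55% and 13.9% in the treated libraries. Treated replicate 3, with the lowest lysosomal score, had the highest share. The libraries with shares of 8.55%, 9.17% and 10.8% had lysosomal scores of 0.06, 0.18 and 0.37. Those with shares of 12.3%, 12.8% and 13.9% had lower scores, -0.17, 0.04 and -0.48. The part of RNA quality was not tested. The part of cell composition in the lysosomal values was not tested, and in bulk tissue fewer cells of a type and less RNA per cell cannot be told apart.

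**Figure D3:**
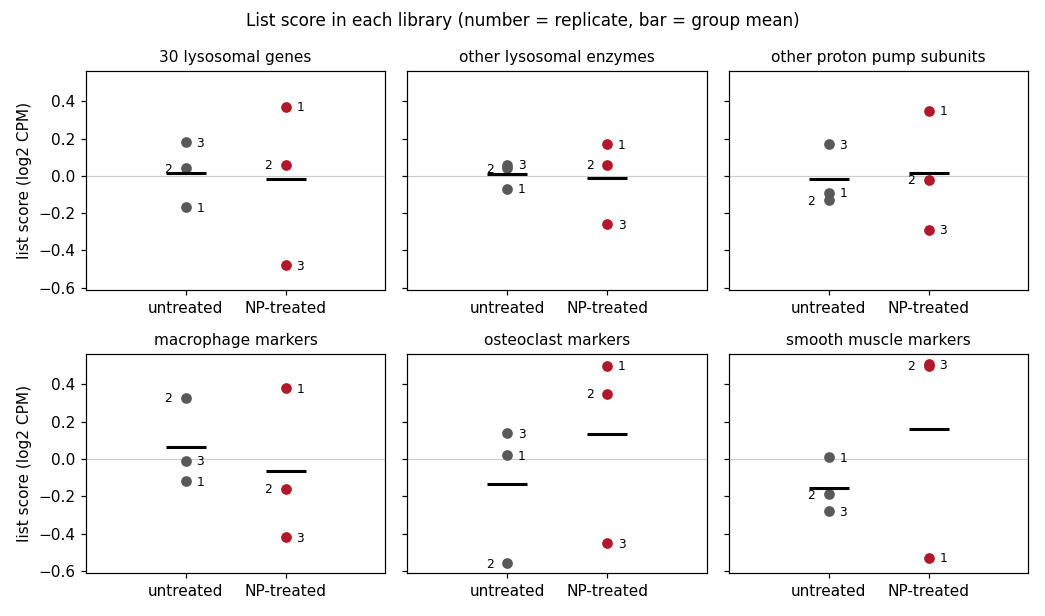
Score (mean centred log2 CPM) of the 30 lysosomal genes and of 5 other lists in each library, as points numbered by replicate, with a bar at the group mean. In the lysosomal, pump and macrophage panels treated replicate 1 is highest and treated replicate 3 lowest, and the smooth muscle panel has treated replicate 1 lowest.

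Levels were compared between genes per length, as FPKM. The highest was Gm2a, the activator protein that lifts gangliosides out of the membrane for hexosaminidase. It measured 1134, 2124 and 2200 FPKM in the untreated libraries and 1380, 2170 and 923 FPKM in the treated libraries. By its mean over the 6 libraries it ranked 37 among all genes of the table. The next was Psap, the precursor of the saposins, which are activators of sphingolipid hydrolases, at rank 52. Psap measured 1094, 1187 and 1250 FPKM in the untreated libraries and 1790, 1065 and 917 FPKM in the treated libraries. Cd63, a tetraspanin of late endosomes, lysosomes and exosomes, came next at 395, 557 and 564 FPKM in the untreated libraries and 987, 549 and 330 FPKM in the treated libraries. Together Gm2a and Psap took 0.520% to 0.953% of all counts, and the 30 members 1.01% to 1.76%.

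Below these, the order by mean FPKM ran Npc2, Lamp1, Laptm5, Lipa, Ppt1, Lamp2, Tpp1, Hexa and Atp6v0d1, which ended the 12 members with a mean above 100 FPKM. Neighbours in the order were never separated, since for each adjacent pair of the 30 the lowest library of the upper gene lay below the highest library of the lower gene. The lowest was Manba, the beta-mannosidase, at 10.9, 10.8 and 11.1 FPKM in the untreated libraries and 11.2, 11.8 and 6.45 FPKM in the treated libraries. Manba varied little except in treated replicate 3. The next lowest were Npc1, Mcoln1 and Arsa. Each group gave the same 10 highest members in the same order.

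**Figure D4:**
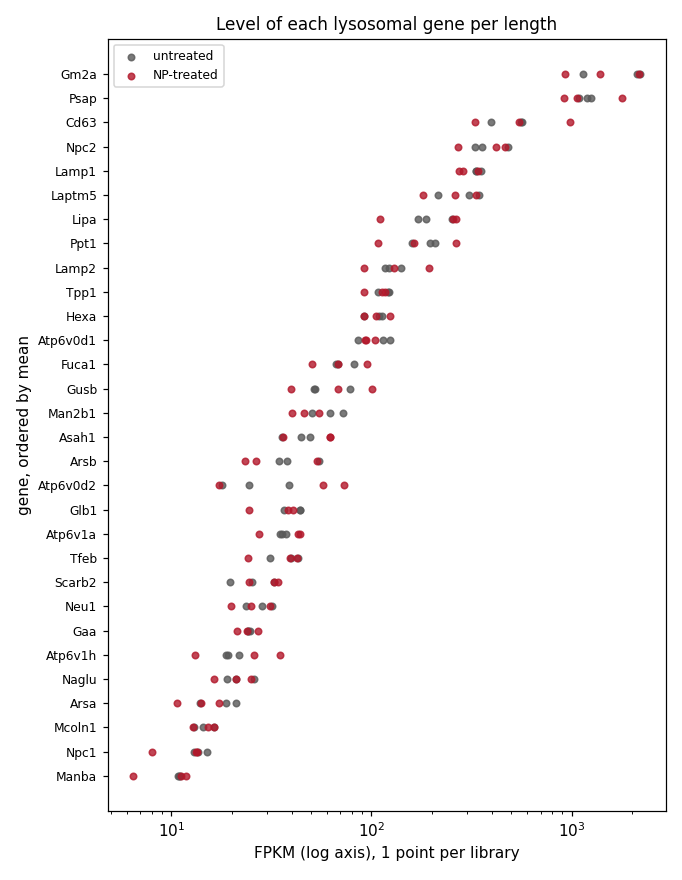
FPKM of each lysosomal gene on a log axis, 1 point per library, untreated in grey and NP-treated in red, ordered by the mean over the 6 libraries. Gm2a lies at 923 FPKM or more and Psap at 917 FPKM or more in every library, and the grey and red points overlap in every gene.

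Among the membrane proteins, the smallest p-value belonged to Scarb2, the receptor that carries glucocerebrosidase to the lysosome. Scarb2 was at 83.2, 53.1 and 68.2 CPM in the untreated libraries and 74.4, 83.0 and 84.9 CPM in the treated libraries. It ran against the other members, with its highest value in treated replicate 3 and its lowest in untreated replicate 2, and the groups overlapped. Its log2 fold change was 0.24 (SE 0.21), with an interval from -0.24 to 0.73. Lamp1, a major glycoprotein of the lysosomal membrane, had the narrowest range of all members, at 923, 1042 and 978 CPM in the untreated libraries and 956, 903 and 772 CPM in the treated libraries. Its highest library was 1.35 times its lowest, and its log2 fold change was -0.16 (SE 0.21). Its relative Lamp2, which also serves chaperone-mediated autophagy, ranged 2.47-fold. Lamp2 was at 291, 256 and 267 CPM in the untreated libraries and 480, 257 and 195 CPM in the treated libraries. The untreated values sat close together, with treated replicate 1 above them, treated replicate 3 below and treated replicate 2 within their range.

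Cd63 had a wider range still, 3.50-fold, from 344 CPM in treated replicate 3 to 1205 CPM in treated replicate 1. Its other libraries lay at 403, 606 and 611 CPM untreated and 536 CPM in treated replicate 2, and its log2 fold change was 0.37 (SE 0.46). Laptm5, a lysosomal membrane protein of blood-derived cells, was at 525, 902 and 803 CPM in the untreated libraries and 981, 613 and 454 CPM in the treated libraries. By CPM, like the macrophage score, Laptm5 was highest in treated replicate 1 and lowest in treated replicate 3, with untreated replicate 2 the next highest. Mcoln1, the cation channel mucolipin of the lysosomal membrane, stayed between 31.8 and 44.8 CPM.

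The cholesterol and neutral lipid group holds Lipa, the acid lipase that frees cholesterol from its esters, and Npc2 and Npc1, which hand that cholesterol on out of the lysosome. All of them were lowest in treated replicate 3. Npc1 had the smallest p-value of the group, at 82.2, 83.7 and 97.8 CPM in the untreated libraries and 97.7, 78.5 and 50.4 CPM in the treated libraries, with a log2 fold change of -0.22 (SE 0.26). Lipa ranged 2.81-fold, at 708, 689 and 1018 CPM in the untreated libraries and 1205, 932 and 429 CPM in the treated libraries. Its log2 fold change was 0.09 (SE 0.40), which went to 0.41 with treated replicate 3 left out and to -0.25 with treated replicate 1 left out. Npc2 lay between 413 and 760 CPM, with a log2 fold change of 0.02 (SE 0.30).

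In the sphingolipid group, Arsa, the sulfatidase, had the smallest p-value and departed from the shared order. It was at 59.8, 95.9 and 85.2 CPM in the untreated libraries and 55.0, 70.8 and 61.7 CPM in the treated libraries, so its lowest library was treated replicate 1. Its log2 fold change was -0.36 (SE 0.22, unadjusted p = 0.150 by edgeR), and without untreated replicate 1 it was -0.53, at an unadjusted p under 0.05 and an adjusted p of 0.996. In that fit Arsa was the 1 member of 30 at such a p, beside 594 of the 16873 genes tested. Asah1, the acid ceramidase, lay between 98.5 and 198 CPM, with a log2 fold change of 0.34 (SE 0.28). Hexa, the alpha chain of hexosaminidase, lay between 199 and 315 CPM, with a log2 fold change of 0.08 (SE 0.23). Gm2a and Psap, both activators for this pathway, differed in which libraries were high. In CPM, Gm2a was highest in untreated replicates 2 and 3, at 5476 and 5652, with treated replicate 2 next at 5036. In FPKM its treated replicate 2, at 2170, lay between those untreated libraries, at 2124 and 2200. Psap was highest in treated replicate 1. The log2 fold changes of Gm2a and Psap were -0.29 (SE 0.42) and 0.15 (SE 0.38).

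The glycan group had 4 of 6 members below 0, and all 6 were lowest in treated replicate 3. Man2b1, the lysosomal alpha-mannosidase, had the smallest p-value of the 30, an unadjusted 0.112. It was at 187, 286 and 244 CPM in the untreated libraries and 179, 195 and 174 CPM in the treated libraries, and only untreated replicate 1 fell within the treated range. Its log2 fold change was -0.38 (SE 0.21), with an interval from -0.89 to 0.12. The other members were Gaa, which degrades glycogen, the beta-galactosidase Glb1, the sialidase Neu1, the fucosidase Fuca1 and Manba. Their log2 fold changes lay between -0.24 for Glb1 and 0.03 for Fuca1. Gaa varied little, by 1.48-fold over the 6 libraries.

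Of the enzymes that degrade glycosaminoglycans, the sugar chains of the matrix proteoglycans, Arsb had the smallest p-value. Arsb, which removes sulfate from dermatan and chondroitin chains, was at 169, 164 and 260 CPM in the untreated libraries and 125, 230 and 121 CPM in the treated libraries. Untreated replicate 3 and treated replicate 2 were high and the other libraries low, and the log2 fold change was -0.32 (SE 0.32). Gusb, the beta-glucuronidase, was high in those libraries and also in treated replicate 1, at 238 CPM, with a range of 118 to 282 CPM. Naglu, which acts on heparan sulfate, lay between 48.9 and 87.0 CPM, with a log2 fold change of -0.04 (SE 0.26). Of the remaining hydrolases, the peptidase Tpp1 was at 314, 376 and 381 CPM in the untreated libraries and 410, 318 and 274 CPM in the treated libraries, with a log2 fold change of -0.10 (SE 0.22). Ppt1, which strips fatty acyl groups from proteins, peaked in treated replicate 2 at 383 CPM and was lowest in treated replicate 3 at 168 CPM.

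The proton pump subunits held the widest range between libraries, 4.90-fold for Atp6v0d2. Atp6v0d2, a d subunit of the membrane sector that is known from osteoclasts and macrophages in mice, was at 40.6, 31.6 and 68.0 CPM in the untreated libraries and 144, 91.2 and 29.4 CPM in the treated libraries. Treated replicates 1 and 2 lay above every untreated library and treated replicate 3 below every one. Its log2 fold change, 0.92 (SE 0.55), was the largest of the members, with an interval from -0.38 to 2.22 and an unadjusted p = 0.141 by edgeR. Leaving out treated replicate 3 gave 1.33, and leaving out treated replicate 1 gave 0.36. Atp6v0d1, the d subunit that is found in most cells, was at 160, 247 and 225 CPM in the untreated libraries and 234, 165 and 179 CPM in the treated libraries, with a log2 fold change of -0.13 (SE 0.24).

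The relation between these alternative subunits therefore varied by library, a description chosen after the values were seen. Per length, Atp6v0d2 was at 0.285, 0.145 and 0.341 of the level of Atp6v0d1 in the untreated libraries. In the treated libraries the ratio was 0.697, 0.622 and 0.185. The group means were 0.257 ± 0.101 and 0.501 ± 0.277 (SD, n = 3 each), and the groups overlapped through treated replicate 3. Atp6v1h, a regulatory subunit of the catalytic sector, ranged 3.12-fold, at 43.4, 47.1 and 53.3 CPM in the untreated libraries and 96.8, 57.3 and 31.0 CPM in the treated libraries. Atp6v1a, the catalytic subunit itself, followed the mean of the other members more closely than any other gene, with an SD of 0.09 after subtraction, and lay between 136 and 247 CPM.

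**Figure D5:**
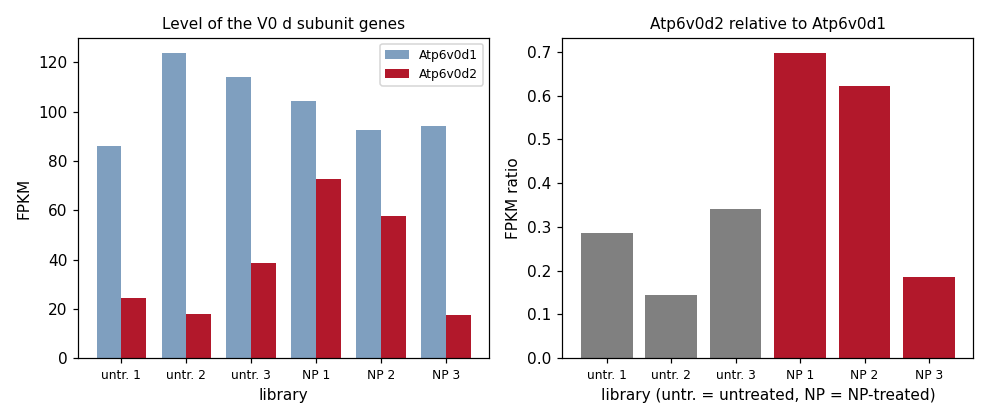
Left, FPKM of the paralogous pump genes Atp6v0d1 and Atp6v0d2 in each library; right, the ratio of the second to the first. The ratio is 0.697 and 0.622 in treated replicates 1 and 2 and between 0.145 and 0.341 in the other libraries.

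Osteoclast markers stood beside Atp6v0d2 as follows. All 10 were tested, none was at 0, and their summed level was 705 to 1287 CPM untreated and 523 to 1172 CPM treated. Their score was 0.50, 0.35 and -0.45 in treated replicates 1, 2 and 3 and 0.02, -0.56 and 0.14 untreated. By gene the list was mixed, with treated replicate 1 highest in 3 of the 10 and treated replicate 3 lowest in 4. The fusion genes Ocstamp and Dcstamp were high in treated replicate 1 alone, at 114 and 16.5 CPM, against at most 13.9 and 3.88 CPM elsewhere. Oscar was at 8.83, 5.37 and 9.42 CPM in the untreated libraries and 29.5, 12.3 and 2.54 CPM in the treated libraries. As for Atp6v0d2, its treated replicates 1 and 2 lay above every untreated library and treated replicate 3 below every one. Acp5, the tartrate-resistant phosphatase, was instead highest in treated replicate 2, at 461 CPM, and at 224 CPM in treated replicate 1. The integrin gene Itgb3 and the transcription factor gene Nfatc1 were lowest in treated replicate 1, at 5.26 and 59.4 CPM, while Itgb3 was highest in treated replicate 3 at 26.5 CPM. The protease gene Mmp9 was highest in untreated replicate 3, at 758 CPM. The part of such cells in the Atp6v0d2 values was not tested.

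Tfeb, the regulator, was at 86.9, 129 and 118 CPM in the untreated libraries and 131, 114 and 68.9 CPM in the treated libraries. By CPM it was highest in treated replicate 1 and lowest in treated replicate 3, the same extremes as in 18 of the 30 genes, itself included. In FPKM Tfeb was instead highest in untreated replicate 2, at 43.19, with treated replicate 1 at 39.25. Its log2 fold change was -0.08 (SE 0.28). Its relative Mitf had the same extremes by CPM. Mitf was at 39.5, 45.6 and 56.7 CPM in the untreated libraries and 74.6, 65.4 and 30.2 CPM in the treated libraries. In FPKM Mitf was highest in treated replicate 2, at 12.18, with treated replicate 1 at 10.98. Another relative, Tfe3, stayed between 31.3 and 36.1 CPM in all libraries.

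The promoters of the members were searched for the core of the TFEB element, CACGTG, and for its longer form TCACGTGA, which contains it. Both are palindromes, so that a match lies on both strands. Of the 30 members, 22 were matched to a promoter of the RefSeq table (GRCr8), which spans 250 bases before to 50 after the gene start. Hexa, Arsa, Asah1, Psap, Arsb, Ppt1, Atp6v0d2 and Atp6v1h were not matched. CACGTG occurred in 6 of the 22 (27.3%), against 6.42% of all 33469 promoters of that length and 9.01% of the 10874 that belong to genes tested here. TCACGTGA occurred in 3 of 22 (13.6%), in Lamp1, Mcoln1 and Atp6v0d1, against 1.60% of the promoters of tested genes. The stretches that hold the motif are shown because they are what these members share at sequence level; they run along the gene's strand and capitals mark CACGTG. Lamp1 has 5 copies, within chr16:83075089-83075253 on the minus strand. The others lie at chr7:1921942-1921971 on the plus strand for Cd63, chr12:6358224-6358253 on the plus strand for Mcoln1, chr10:105028276-105028305 on the plus strand for Gaa, chr8:122963606-122963635 on the plus strand for Glb1 and chr19:50357283-50357312 on the minus strand for Atp6v0d1.
Lamp1: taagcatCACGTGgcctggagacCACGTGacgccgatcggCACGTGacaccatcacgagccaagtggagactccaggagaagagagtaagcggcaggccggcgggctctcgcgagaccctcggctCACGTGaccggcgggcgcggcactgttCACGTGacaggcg
Cd63: ccgggcagcggcCACGTGgcctgtccaggc
Mcoln1: cgtcaagcttgtCACGTGttcgacccaggc
Gaa: ccgcccacaaacCACGTGacccacgctgcc
Glb1: cggctccggagtCACGTGgcctgcagaggc
Atp6v0d1: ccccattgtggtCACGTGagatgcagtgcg

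In Lamp1 the copies begin 183, 167, 150, 65 and 38 bases before the gene start. A second copy in Mcoln1, not shown, begins at base 5 after the gene start and is the one within TCACGTGA. The 6 members with CACGTG had a median ratio of highest to lowest library of 1.51, from 1.35 in Lamp1 to 3.50 in Cd63. The 16 without it had a median of 1.92, from 1.50 to 2.81. Treated replicate 3 was lowest in 4 of the 6 and in 15 of the 16. A match is a run of letters and not a site shown to be bound, and these shares were not tested.

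Lysosomal genes outside the 30 were read from lists written with earlier results of these data known. Of 23 other lysosomal enzymes 11 had a log2 fold change above 0 and 12 below, with a median of -0.03, and 0 passed the threshold. Gla, the alpha-galactosidase that degrades globotriaosylceramide, was at 24.8, 22.5 and 21.6 CPM in the untreated libraries and 65.3, 25.4 and 19.7 CPM in the treated libraries, so treated replicate 1 was high alone. Lgmn, the asparaginyl endopeptidase legumain, was at 885, 1427 and 1162 CPM in the untreated libraries and 1363, 577 and 482 CPM in the treated libraries. The log2 fold change was 0.36 (SE 0.25) for Galc and -0.34 (SE 0.23) for Pla2g15. In the list as a whole treated replicate 3 was lowest in 14 of 23 and treated replicate 1 highest in 11.

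Of 20 other lysosomal membrane genes 12 lay above 0 and 8 below, with 0 called and a median of 0.05. The cation channels Mcoln2 and Mcoln3, relatives of Mcoln1, showed the order of Atp6v0d2 among the treated libraries. Mcoln2 was at 15.2, 8.92 and 23.3 CPM in the untreated libraries, at 60.1 CPM in treated replicate 1 and at 11.6 CPM in treated replicate 3, with a log2 fold change of 1.10 (SE 0.60). Mcoln3 was at 16.7, 5.15 and 16.9 CPM in the untreated libraries and 36.5, 20.6 and 8.94 CPM in the treated libraries. The log2 fold change was -0.28 (SE 0.17) for the calcium and sodium channel Tpcn1 and -0.39 (SE 0.31) for Cln3. Tpcn1 was the member of this list whose treated values, 82.0 to 101 CPM, all lay below its untreated ones, 105 to 111 CPM. It was the 1 gene of 20 in this list with separate groups, against 5.67% of all genes.

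Of 19 other pump subunits 11 lay above 0 and 8 below, with 0 called and a median of 0.11. Treated replicate 3 was lowest in 13 and treated replicate 1 highest in 13. Atp6v0e2, a small subunit of the membrane sector, was at 22.6, 19.4 and 20.1 CPM in the untreated libraries and 37.4, 26.0 and 24.4 CPM in the treated libraries. These groups did not overlap, and the log2 fold change was 0.50 (SE 0.22, unadjusted p = 0.0549 by edgeR). Groups without overlap were found in 1 of these 19 subunits, against 5.67% of all genes. The log2 fold change was -0.38 (SE 0.25) for Atp6v0a1 and 0.37 (SE 0.32) for Atp6v1e1. Tcirg1, the a subunit used by osteoclasts, was at 317, 357 and 888 CPM in the untreated libraries and 452, 543 and 299 CPM in the treated libraries, so its high library was untreated replicate 3 and not treated replicate 1.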

How the data were processed

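Counts per gene were deposited by the authors as whole numbers that had not been normalized, and FPKM values, which the authors also computed, stand beside them. HISAT2 2.0.4 is named in the submitters' processing notes, and SOAPnuke in the series design text. The sources used here give no counting tool, genome build, annotation or strand setting. For each member, FPKM per count stayed within 0.016 (log2) over the libraries. In RefSeq GRCr8, protein-coding neighbours overlap Cd63, Npc1, Hexa, Psap, Glb1 and Atp6v1h. The overlapping genes found in the table averaged 0.844 to 24.7 CPM, with Rmc1 at 24.7 CPM beside Npc1 at 81.7 CPM.

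Genes were kept by filterByExpr with a minimum count of 10, which left 16522 genes and all 30 members. Treated and untreated libraries were compared with edgeR 4.0.16 (R 4.3.3, TMM, group as the only term), with Benjamini-Hochberg adjustment over all tested genes. Scores use log2 CPM with a prior count of 2. Alternatives used DESeq2 1.42.0 and limma 3.58.1. Member counts ran from 817 to 179751, where counting error alone is at most 3.5%.

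The members, lists and tests were chosen with earlier results of these data known. Values in every library are printed for members past an unadjusted p of 0.05 or with separate groups (there were none), the 3 highest and the lowest by FPKM and the smallest p-value of each role. In the other lists up to 2 genes per direction were named by p-value. Other named genes were chosen after their values were seen. Of 226 list entries, 6 were not matched and are not analysed here.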

Additional observations from a re-analysis of the deposited data

How the results depend on the processing

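The count of lysosomal members past an adjusted p of 0.05 was 0 under every alternative run (DESeq2's size factors or upper-quartile factors inside edgeR, the replicate block, an unfiltered table, DESeq2, limma-voom, limma on log2(FPKM + 1) and each library left out). Over all genes edgeR gave 0, DESeq2 26 and limma on log2(FPKM + 1) 1. The sources used here do not say whether the replicate numbers pair the libraries, which were treated as unpaired. Deviations of same-numbered libraries from their group means correlated at -0.17, 0.07 and -0.27. With 3 libraries a group such values depend on one another, so they cannot exclude a pairing. With the replicate block the score difference was -0.04, 0 genes were called, and the log2 fold changes of Npc2, Gaa and Fuca1 were 0.00, -0.01 and -0.05. Limma-voom gave 0.00, -0.01 and -0.05 for these and -0.01 for Lipa, and limma on log2(FPKM + 1) gave -0.02, -0.02, -0.06 and -0.03 for the same 4 genes. The score difference was -0.05 to -0.03 under the other scalings, 0.10 after subtraction of the macrophage score (an alternative chosen after seeing the data), and -0.24 to 0.20 with 1 library left out. In those leave-out fits 20 members changed sign. Their log2 fold changes ran from -0.09 to 0.32 for Atp6v1a, -0.13 to 0.68 for Atp6v1h, -0.30 to 0.69 for Cd63, -0.37 to 0.24 for Fuca1, -0.19 to 0.12 for Gaa, -0.07 to 0.48 for Gusb, -0.17 to 0.20 for Hexa, -0.27 to 0.44 for Lamp2, -0.49 to 0.10 for Laptm5, -0.25 to 0.41 for Lipa, -0.35 to 0.12 for Manba, -0.09 to 0.16 for Mcoln1, -0.32 to 0.13 for Naglu, -0.41 to 0.07 for Neu1, -0.45 to 0.00 for Npc1, -0.17 to 0.23 for Npc2, -0.36 to 0.19 for Ppt1, -0.33 to 0.37 for Psap, -0.28 to 0.14 for Tfeb and -0.28 to 0.03 for Tpp1. The other 10 members kept their sign in these fits, among them Atp6v0d2 from 0.36 to 1.33, Arsa from -0.53 to -0.22 and Man2b1 from -0.53 to -0.24. With 3 libraries a group, the spread between libraries and not the depth limits these comparisons.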

Other observations

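Genes that deliver enzymes to the lysosome or sense nutrients on its surface had scores that ranged less between libraries than that of the 30 members. The same held for the other lysosomal enzymes (-0.26 to 0.17), membrane genes (-0.24 to 0.30) and pump subunits (-0.29 to 0.35). Of 21 genes that sort proteins to the lysosome, 8 had a log2 fold change above 0 and 13 below, with a median of -0.04 and 0 called by edgeR. Vps41, of the complex that fuses late endosomes with lysosomes, was at 36.6, 35.0 and 37.9 CPM in the untreated libraries and 52.4, 42.3 and 43.3 CPM in the treated libraries, and the groups did not overlap. Vps41 was the 1 gene of 21 in this list with separate groups, against 5.67% of all genes. Its log2 fold change was 0.33 (SE 0.17). Gnptab, which makes the mannose phosphate tag of lysosomal enzymes, had 0.41 (SE 0.27), and Gnptg and Vps16 had -0.29 (SE 0.20) and -0.23 (SE 0.21). The list score lay between -0.14 in treated replicate 3 and 0.08 in untreated replicate 3 and treated replicate 1. Of 16 genes related to Tfeb and to nutrient sensing, 10 lay above 0 and 6 below, with 0 called. Among them Ywhaz, Rptor, Lamtor2 and Flcn had log2 fold changes of 0.18, 0.14, -0.17 and -0.10.

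Of 19 autophagy genes, 9 lay above 0 and 10 below, with a median of -0.03 and 0 called. Bnip3, a mitophagy receptor induced by low oxygen, was at 224 CPM in treated replicate 1 and at 36.8 to 47.5 CPM in the other libraries. Optn, an autophagy receptor, was also highest there, at 175 CPM, against 82.6 to 133 CPM elsewhere. The early autophagy genes Ulk1 and Atg9a were instead lowest in treated replicate 1, at 36.5 and 66.4 CPM, against at least 59.8 and 91.7 CPM in the other libraries.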
